A study of Mus musculus with 2 samples.

Results

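Replication-dependent histone mRNA fragments are short RNAs of 20 to 30 nt whose sequence lies, in sense, within the transcripts of the clustered histone genes (symbols beginning with Hist1h, Hist2h, Hist3h or Hist4). Every distinct sequence (tag) of that length in either library was compared without mismatch with the protein-coding transcripts of the GENCODE M21 annotation of mouse (GRCm38). A tag was kept when all protein-coding genes it fitted were histone genes. The rule gave 1024 tags of 1858314 in all, and 451255 tags of the same length fitted any protein-coding transcript. Of the 1024 tags, 669 fitted 1 histone gene and 355 fitted several, up to 16, so a tag counts once however many near-identical genes it fits. All 67 histone genes of the rule were fitted by at least 1 tag.

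The study holds 2 small RNA libraries from spleen of C57BL/6J mice, 1 per group. CD11c+ cells were enriched on magnetic beads, stained for Ia, the mouse MHC class II molecule, and sorted into CD11c+Ia high cells (Ia_high) and CD11c+Ia low cells (Ia_low), both labelled as dendritic cells. The labels give no treatment, age, sex or number of mice. Ia_high held 16388303 reads in 1185709 tags and Ia_low 13739811 reads in 758783 tags.

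Most mRNAs end in a poly(A) tail, but replication-dependent histone mRNAs end in a conserved stem-loop, which is bound by the stem-loop binding protein SLBP. The end is made by a single cleavage of the longer primary transcript between the stem-loop and a histone downstream element, which base-pairs with the 5′ end of U7 small nuclear RNA, and the mRNA accumulates in S phase and is degraded when replication stops. Histones H2A, H2B, H3 and H4 form the nucleosome core around which DNA is wound, and H1 binds the linker DNA between nucleosomes.

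The sequences that carry the result are those on either side of the cleavage. The first line below is the 5′ end of U7 RNA (Rnu7, minus strand, chr6:124741225-124741286 for the whole gene), and the second is the commonest form of the stem-loop, found in 26 of 46 histone genes with a stem-loop. The next lines are tags from beyond the stem-loop, with the longest run complementary to the first 20 bases of U7 in capitals.
U7 5′ end: aagtgttacagctcttttag
Stem-loop: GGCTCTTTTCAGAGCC
Hist1h3g: tccaaaAAAAGAactgtagcgcttttt
Hist1h1c, most read in Ia_high: ttAAGAGCTGTgacatttgtgt
Hist1h1c, most read in Ia_low: cttAAGAGCTGTgacatttgt
Hist1h1c, most read in both together: tAAGAGCTGTgacatttgtgt
Hist1h4a: ccctgaaaaagcGCTGTAAtactgaacc
Hist1h3a: caagtaaaatgGCTGTAAtttactcc
Hist4h4: cagaaagGAGCTGTggacatttgtag
Hist2h3c2: ttcccggAAAGAGCTGTttact

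The Hist1h3g tag (chr13:23535913-23535939, plus strand) was the most read histone tag of Ia_high, with 902 reads there and 64 in Ia_low. For the Hist1h1c tags, in the order shown, the reads were 83 and 1 (chr13:23739539-23739560, plus strand), 8 and 59 (chr13:23739538-23739558) and 69 and 44 (chr13:23739540-23739560). Tags that differ by 1 or 2 bases at an end thus went in either direction. The Hist1h4a tag (chr13:23760763-23760790, minus strand) had 13 and 23 reads. These tags begin after the position where cleavage ends the stem-loop mRNA. Hist1h1c is also expressed as a polyadenylated mRNA. Whether the tags came from the piece that cleavage removes or from longer mRNAs was not tested.

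Ia_high held 899 histone tags in 8387 reads and Ia_low held 200 tags in 2355 reads. Scaled to the distinct tags of the library that fitted protein-coding transcripts, 339818 and 141708, these are 2646 and 1411 histone tags per 1000000. The ratio of Ia_low to Ia_high was 0.533, with an exact (Clopper-Pearson) 95% counting interval of 0.455 to 0.623. In reads the ratio was 0.336 (0.294 to 0.382). The histone share of protein-coding tags was therefore 1.87-fold lower in Ia_low by tags and 2.98-fold lower by reads. With 1 library per group there is no replicate check and no test between groups, and the intervals cover counting error only. PCR reads without molecular identifiers are not independent molecules and many histone tags overlap, so the intervals are too narrow.

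The strand background was small: 18 tags in Ia_high and 2 in Ia_low fitted only the reverse complement of histone transcripts, 2.0 and 1.0 per 100 sense tags. The median number of reads per tag was 5 in Ia_high and 10 in Ia_low, for histone and for all protein-coding tags. They were also of similar length, with medians of 24 and 26 nt against 25 and 26 nt for all protein-coding tags. The libraries shared 75 histone tags, 8.34% of those of Ia_high and 37.5% of those of Ia_low. For all protein-coding tags these shares were 8.91% and 21.4%. Another 234 tags fitted histone and other protein-coding genes alike, a median of 18.5 genes each, and are not members. Of the members, 198 in Ia_high and 38 in Ia_low also fitted transcripts annotated as other than protein-coding. Without these the histone ratio was 0.554 (0.464 to 0.658).

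Other markers moved between the libraries beside the histone tags. For genes, tags that fitted exactly 1 protein-coding gene were counted and scaled to all such tags, and a gene with 10 or more of them in both libraries together was called when the ratio was at least 2-fold and its interval left out 1. Of 7006 genes, 8.34% were called lower and 6.12% higher in Ia_low. Of 14 measured S phase genes 6 were called lower and none higher, and of 7 measured mitosis genes 5 were called lower and none higher. Mki67, a proliferation marker, had 155 tags in Ia_high against 5, and Top2a, a topoisomerase that resolves DNA at mitosis, had 80 and 2. Pcna, the sliding clamp of replication, had 102 and 33 tags and was not called (ratio 0.787, 0.514 to 1.18). Of 8 dendritic cell markers 5 were called lower and none higher, and of 10 markers of Ly6C-low monocytes 9 were called higher and none lower. The 5 were H2-Ab1, H2-Eb1, Ciita, Flt3 and Zbtb46. H2-Ab1 and H2-Eb1 are MHC class II chains and Ciita is their activator. The cells were sorted on Ia, so these calls are not independent of the sort. Flt3, the receptor that dendritic cells need for their development, had 153 and 5 tags, and Zbtb46, a factor of conventional dendritic cells, 56 and 1. Itgax, the gene of CD11c, had 320 and 77 tags (0.585, 0.450 to 0.752) and H2-Aa, an Ia chain, 768 and 161 (0.510, 0.427 to 0.605). Cd74, with the most tags of this list, had 1349 and 440 (0.793, 0.711 to 0.884). Itgax, H2-Aa and Cd74 were not called. Both Flt3 and Zbtb46 were near 0 in the library labelled Ia_low. Of 7 measured markers of type 1 conventional dendritic cells 6 were called lower, and of 3 plasma cell markers 2 were called higher. Of 2 measured neutrophil genes 1 was called higher, the 1 measured T cell gene, Tcf7, was called lower with 32 and 0 tags, and the 1 measured B cell gene, Pax5, was not called with 11 and 1. No gene of the NK cell and erythroid lists reached 10 tags, and their summed tags were 4 and 5 and 17 and 0. The part of the cell types and of the cell cycle in the histone difference was not tested, and fewer cycling cells and less histone RNA per cell cannot be told apart.

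All histone types had fewer scaled tags in Ia_low. H1, from 6 genes, had 229 tags in Ia_high and 63 in Ia_low, a ratio of 0.660 (0.491 to 0.875). H2A, from 18 genes, had 117 and 27 tags, a ratio of 0.553 (0.350 to 0.847). H2B, from 18 genes, had 149 and 15 tags, and its ratio of 0.241 (0.132 to 0.411) was the lowest of the 5 types. H3, from 12 genes, had 202 and 39 tags, a ratio of 0.463 (0.320 to 0.655). H4, from 13 genes, had 201 and 56 tags, a ratio of 0.668 (0.488 to 0.902). The interval of H2B did not overlap those of H1 and H4, and it overlapped those of H2A and H3. This depended on the tags after the stem-loop. Without them, an alternative chosen after seeing the data, H2B stood at 0.187 (0.0913 to 0.345). H1 then stood at 0.380 (0.234 to 0.593) and H4 at 0.447 (0.285 to 0.677), and the interval of H2B overlapped both. The difference between types was not tested. The H4 difference depended on how overlapping tags were counted: with tags that share their first 20 bases counted once, H4 stood at 112 and 50 and its ratio at 1.01 (0.709 to 1.42). A single tag that fitted H1 and H2B genes was left out of the types.

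**Figure D1:**
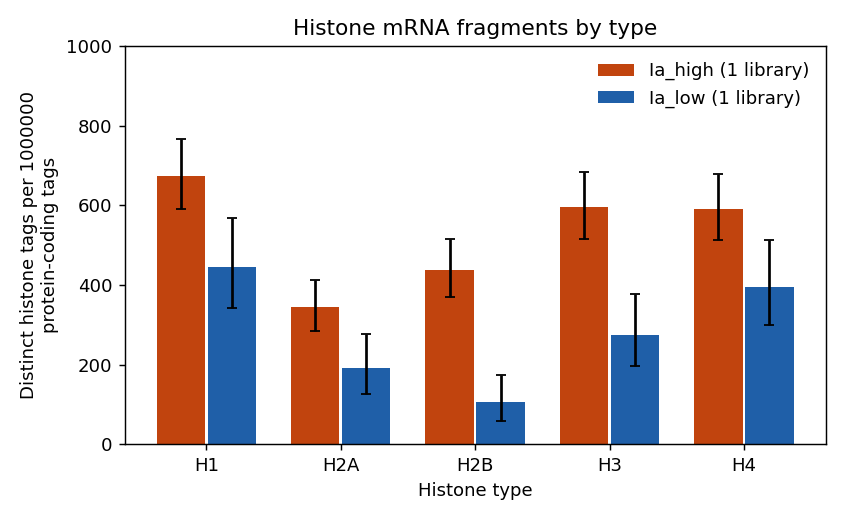
Distinct histone tags per 1000000 protein-coding tags (vertical axis) for the 5 histone types in the 1 library of Ia_high and the 1 library of Ia_low, with exact 95% counting intervals as error bars. Every type is lower in Ia_low, and H2B differs most, with 438 in Ia_high and 106 in Ia_low.

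By reads the order of the types was another one. H3 held 3739 of the histone reads of Ia_high and 587 of those of Ia_low, or 44.6% and 24.9%. The H3 ratio by reads was 0.188 (0.143 to 0.241), below its ratio by tags. H1 had 1678 and 735 reads (ratio 0.524), H2A 656 and 281 (0.512), H2B 886 and 151 (0.204) and H4 1419 and 601 (0.506). The H3 reads sat in few tags. Hist1h3g (chr13:23535422-23535951) gave 1572 and 247 reads beyond its stem-loop, and 27.5% and 23.2% of H3 reads came from tags that begin 160 to 169 bases after the first base of the start codon.

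Tags did not cover the transcripts evenly. The coding region held 390 tags of Ia_high and 75 of Ia_low, 43.4% (40.1 to 46.7) and 37.5% (30.8 to 44.6) of the histone tags of each library. Tags across the stop codon were 122 and 14, or 13.6% (11.4 to 16) and 7.0% (3.88 to 11.5). Tags across the start codon were 89 and 11, and those within the 5′ UTR 37 and 9. Tags beyond the stem-loop made up a larger share of the histone tags in Ia_low than in Ia_high. The downstream element, taken as the 50 bases after the stem-loop after the tags had been seen, held 135 and 52 tags, 15% (12.7 to 17.5) and 26% (20.1 to 32.7), and farther downstream lay 79 and 36 tags, 8.79% (7.02 to 10.8) and 18.0% (12.9 to 24).

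**Figure D2:**
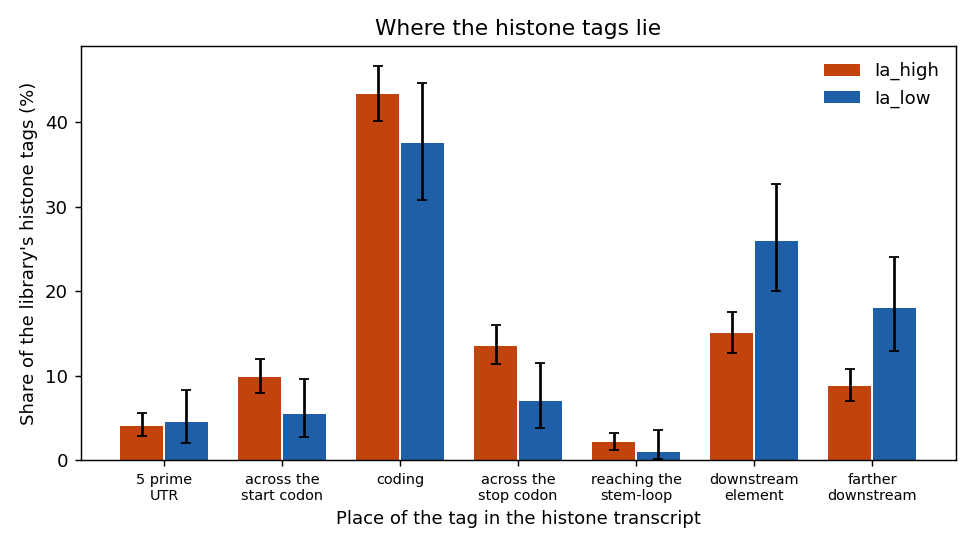
Share of each library's histone tags (vertical axis, percent) by place in the transcript, from 5′ to 3′, for Ia_high and Ia_low, with exact 95% counting intervals. The downstream element holds 15% of the histone tags of Ia_high and 26% of those of Ia_low.

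Scaled to protein-coding tags, the downstream element had a ratio of 0.924 (0.657 to 1.28) and the region beyond it 1.09 (0.716 to 1.64). Tags that begin before the end of the stem-loop, or lie in a transcript with no stem-loop found, numbered 685 and 112, a ratio of 0.392 (0.318 to 0.479). The lower histone share of Ia_low was thus seen in the body of the mRNA as a whole, and for the region beyond the stem-loop the interval held 1. Much of that region was Hist1h1c, with 73 and 38 tags after its stem-loop, a ratio of 1.25 (0.820 to 1.87). Without Hist1h1c the downstream element had 103 and 34 tags, a ratio of 0.792 (0.521 to 1.18). In reads the downstream element did differ: it had 2709 and 809 reads, a ratio of 0.357 (0.284 to 0.446), with 58.0% of these reads in Ia_high and 30.5% in Ia_low from Hist1h3g. Its share of histone reads was 32.3% and 34.4%, so for the downstream element the gap between the libraries in share by tags was not there by reads. Farther downstream the gap remained, with 393 and 384 reads, 4.69% and 16.3% of histone reads, a ratio of 1.17 (0.805 to 1.71).

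The stem-loop itself was almost bare. Tags with their 3′ end in the stem-loop or in the 5 bases after it numbered 19 of 899 in Ia_high and 2 of 200 in Ia_low, 2.11% (1.28 to 3.28) and 1.0% (0.121 to 3.57). No tag of either library ended in the 5 bases after the stem-loop, where the mature mRNA ends, and none that began before the end of the stem-loop ran past it, which allows up to 3 tags by counting error. The most read tags that end in the stem-loop are shown with its bases in capitals, since they stop short of its last base.
Hist1h3d: ttggaccccaaaGGCTCTTTTCAGA
Hist1h2bf, Hist1h2bg and Hist1h2bh: taacccaaaGGCTCTTTTCAGA
Hist1h2ae: cgtaaaaaaaacaaaGGCTCTTTTCAG
Hist1h2ag: ctgttgatcgccaacaaaGGCTCTTTT

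The Hist1h3d tag (chr13:23576232-23576256) was read 23 times in Ia_high and not in Ia_low, and a form shorter by its last base had 9 and 14. The tag of the 3 H2B genes had 14 and 0 reads and that of Hist1h2ae (chr13:23570672-23570698) 10 and 0. The Hist1h2ag tag (chr13:22042490-22042516) had 0 and 6. None of these tags had more than 23 reads in a library.

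**Figure D3:**
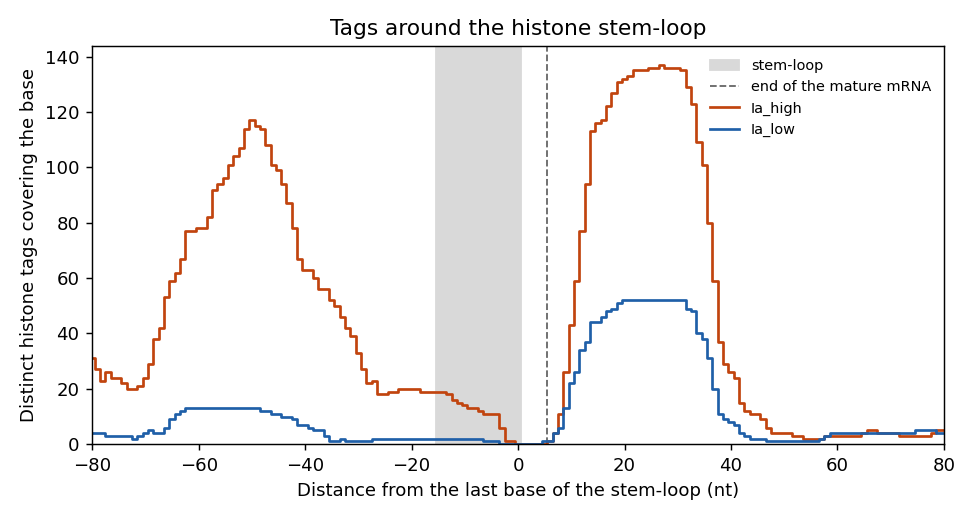
Number of distinct histone tags that cover each base (vertical axis) by distance from the last base of the stem-loop (horizontal axis, nt), for Ia_high and Ia_low, with the stem-loop shaded and the end of the mature mRNA dashed. Both libraries drop to 0 at the end of the stem-loop, and the peak after it reaches 137 tags in Ia_high and 52 in Ia_low.

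Beyond the stem-loop, tags stood in a narrow stack that was alike in both libraries. Between the stem-loop and the first base of a downstream element tag lay a median of 11 bases in Ia_high (5 to 21) and 10.5 in Ia_low (4 to 19), and 83.0% and 82.7% of the tags had 6 to 13. The median last base was base 36 after the stem-loop in both libraries. These tags came from 17 histone genes in Ia_high and 10 in Ia_low. Only annotated transcripts were searched, and some end near here, Hist1h3a 37 and Hist1h4f 33 bases after the stem-loop. The last bases and the number of genes are thus bounded by the annotation. A run of at least 6 bases complementary to the first 20 of U7 was held by 94.8% and 96.2% of them, and GCTGT by 79.3% and 78.8%. Tags of the stack overlap and share their target, so these shares describe a few genes.

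The same motif, GCTGT, was found in part of the genes themselves. Of 46 genes with a stem-loop, 29 have an annotated transcript that covers the 40 bases from base 6 after it, and 11 of these windows (37.9%) held GCTGT, against 5.63% of all windows of that length cut from 21901 protein-coding genes. A run of 6 bases complementary to U7 was held by 21 of the 29 windows (72.4%) and by 13.3% of all windows. The reverse complement, ACAGC, was held by 3.45% of the histone windows and 5.44% of all. The motif was chosen after the tags had been seen, and a match is a description of the letters only.

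The downstream tags of 3 genes dominated. Hist1h4a (chr13:23760692-23761230), an H4 gene, had 38 tags and 301 reads in Ia_high and 13 tags and 148 reads in Ia_low. Hist1h1c, a linker histone gene that is also expressed as a polyadenylated mRNA outside S phase, had 32 tags and 496 reads, and 18 and 264. Hist1h3g had 19 tags and 1572 reads, and 6 and 247, its second most read tag having 387 and 111 reads. Hist1h3a, an H3 gene, had 14 tags in Ia_high and 3 in Ia_low, and Hist4h4, the H4 gene outside the large clusters, had 7 and 6. The other genes of the stack had 1 to 6 tags in Ia_high and up to 2 in Ia_low.

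Among linker histones, Hist1h1c (chr13:23738808-23740367) had the most tags. It had 97 tags that fitted it alone in Ia_high and 45 in Ia_low, a ratio of 1.13 (0.774 to 1.62). Of these, 73 and 38 began after the stem-loop, as far as 773 bases beyond it, and 24 and 7 before its end. Hist1h1d had 43 and 3 tags, a ratio of 0.170 (0.0337 to 0.530), with 14 and 2 across the start codon and 15 and 0 in the coding region. Hist1h1b had 26 and 2 tags (0.187, 0.0215 to 0.747) and Hist1h1a 23 and 3 (0.317, 0.0610 to 1.05). Hist1h1e had 19 and 6 (0.768, 0.251 to 2.0). The intervals of Hist1h1e and Hist1h1a overlap that of Hist1h1c, and the difference between these genes was not tested. Without Hist1h1c the histone tags numbered 802 and 155, a ratio of 0.463 (0.388 to 0.551).

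Among core histones, the 4 H2B genes with the most tags had 1 tag each in Ia_low. Hist1h2bc had 20 tags in Ia_high and 1 in Ia_low (0.122, 0.00293 to 0.760), of which 18 and 1 lay in the 3′ UTR of its annotated spliced transcript, in which no stem-loop was found. Hist1h2bb and Hist1h2be had 16 and 1 tags each (0.152, 0.00362 to 0.978) and Hist1h2bh 15 and 1 (0.162, 0.00385 to 1.05). These genes rank first through their tags in Ia_high. The next by tags, Hist1h2bg and Hist2h2bb, had 5 and 3 (1.46, 0.227 to 7.5) and 7 and 0. For H2A, Hist2h2aa1 had 8 and 4 tags, all in its 5′ UTR. Hist1h2ac had 7 and 2, Hist1h2ab 7 and 1, Hist1h2ae 7 and 0 and Hist1h2ad 6 and 1, and each other H2A gene had fewer. For H3, Hist1h3g had 20 and 6 tags (0.729, 0.240 to 1.88), Hist1h3a 15 and 3, Hist1h3d 10 and 2 and Hist2h3c2 7 and 0. For H4, Hist1h4a had 55 and 20 (0.884, 0.502 to 1.5), Hist1h4f 33 and 1 (0.0737, 0.00181 to 0.440), Hist4h4 16 and 9 (1.37, 0.533 to 3.29) and Hist1h4d 19 and 4 (0.512, 0.127 to 1.54).

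Of the 18 histone genes with 10 tags or more, 6 were called lower in Ia_low (33.3%, against 8.34% of all genes) and none higher (against 6.12%). They were Hist1h1b, Hist1h1d, Hist1h2bb, Hist1h2bc, Hist1h2be and Hist1h4f. Since 17 of the 18 reached 10 tags in Ia_high alone and 2 in Ia_low alone, the count describes the genes that could be read and supports no statement on the 67. The median log2 ratio of the 18 was -1.04 and that of the 7006 genes -0.13. With reads divided by the mode of reads per tag (4 in Ia_high, 9 in Ia_low), 12 of 24 histone genes were called lower, against 11.1% of all genes.

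**Figure D4:**
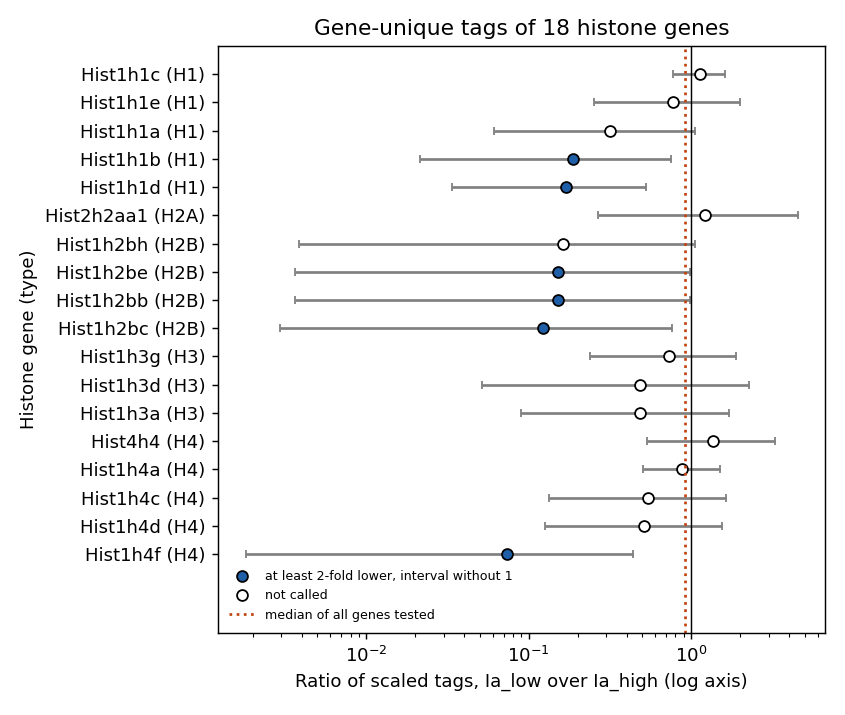
Ratio of scaled gene-unique tags, Ia_low over Ia_high (horizontal log axis), with exact 95% counting intervals, for the 18 histone genes with 10 tags or more, grouped by type. The 6 filled points are the genes called lower, and Hist1h1c stands at 1.13.

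Outside the downstream element, the tags of highest read count formed stacks in the coding region of H3 and at the stop codon of H4. The bounds of both stacks were chosen after the tags had been seen. They are shown with the stop codon in capitals where they hold it, followed by the most read H2A and H2B tags of each library, Ia_high first, and the most read H4 tag of Ia_low.
H3, 12 genes: gaagtcgaccgagctgctgatccgcaag
Hist1h4f: gattcggcggtTAAgctcacctgga
Hist1h4a: acggattcggcggcTAAgact
Hist2h2aa1: gttgtggccgttcgtctgtttgcgc
H2A, 4 genes: atggcggcggtgctggagtacc
H2B, 13 genes: tccaaggccatgggcatcatgaactcgttc
H2B, 13 genes: atgggcatcatgaactcgttcgtga
Hist1h4i: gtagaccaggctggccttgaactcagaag

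The H3 tag fits all 12 H3 genes, so its reads, 169 against 4, cannot be given to one of them. Its stack held 32 tags and 1030 reads in Ia_high and 14 tags and 136 reads in Ia_low, a ratio by tags of 1.05 (0.517 to 2.02). The H4 stack, with first bases 290 to 299 bases after the first base of the start codon, held 79 tags and 667 reads against 10 tags and 120 reads, a ratio of 0.304 (0.140 to 0.588). It made up 39.3% of the H4 tags of Ia_high and 17.9% of those of Ia_low. With tags that share their first 20 bases counted once, the H4 stack held 28 in Ia_high and 10 in Ia_low, unscaled. Its ratio thus depended on how overlapping tags were counted. The Hist1h4f tag (chr13:23551321-23551345) had 43 and 0 reads, and across its stop codon the gene had 31 tags in Ia_high and 0 in Ia_low. The Hist1h4a tag (chr13:23760842-23760862) had 29 and 25 reads.

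The Hist2h2aa1 tag (chr3:96245549-96245573), in the 5′ UTR, had 20 and 0 reads, and the tag of 4 H2A genes 2 and 43. The H2B tags had 22 and 0 and 5 and 15 reads. The Hist1h4i tag (chr13:22040880-22040908), beyond the stem-loop, had 0 and 27 reads. The genome outside annotated transcripts was not searched, so whether this tag came from Hist1h4i or from another place was not tested. Single tags differed in either direction, and none of these differences has a replicate.

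Genes that handle histones or their mRNAs were read from the same libraries. Replacement histone genes are mostly expressed outside S phase too, from polyadenylated mRNAs. Of 11 such genes, 8 were measured, 1 was called lower and none higher, with a median log2 ratio of -0.45. The counts of this list and the next 3 are to be read against 8.34% of all genes called lower and 6.12% higher. H3f3b, a gene for histone H3.3, had 277 tags in Ia_high and 91 in Ia_low (0.799, 0.623 to 1.02), H3f3a, the other H3.3 gene, 95 and 39 (0.998, 0.669 to 1.46) and H2afz, for H2A.Z, 157 and 36 (0.558, 0.377 to 0.805). The gene called was Cenpa, the H3 variant of centromeres, with 23 and 1 tags. Of 13 genes of histone mRNA 3′ end processing, 10 were measured and 2 were called lower. They were Slbp with 32 and 5 tags (0.380, 0.116 to 0.982) and Cstf2, a cleavage factor subunit, with 26 and 3 (0.281, 0.0543 to 0.915). Below 10 tags were Lsm10 with 0 and 6, Lsm11 with 3 and 0 and Zfp473 with 1 and 0. Cpsf3, the nuclease that cuts histone and other primary transcripts, had 49 and 15 tags (0.744, 0.388 to 1.35), Cpsf2 39 and 17 and Eri1, an exonuclease that trims the histone stem-loop, 31 and 11.

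Of 9 genes of histone mRNA decay 8 were measured and none was called in either direction. Tut7 and Tut4, which add uridines to RNA 3′ ends, had 64 and 23 and 54 and 15 tags, and Xrn1, the cytoplasmic 5′ to 3′ exonuclease, had 58 and 24. Of 9 histone chaperone genes 5 were measured and 1 was called lower, Rbbp7, with 52 and 5 tags (0.234). Npm1 had 185 and 69 tags and Rbbp4 113 and 37, and neither was called.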

How the data were processed

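The deposited files hold 1 count of reads per distinct sequence for each library, unscaled, as the authors left them. Per the labels' protocols, a mirVana kit gave the RNA, molecules under 30 bases were cut from a gel and joined to adaptors, and 12 cycles of PCR preceded Solexa sequencing. Sorted cells were over 95% pure, per the labels. No source used here names the trimming, the read filters or a build.

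Tags were compared without mismatch with GENCODE M21 transcripts (GRCm38) in Python 3.11.15 (numpy 2.4.6, scipy 1.17.1). Sequence outside annotated transcripts was not searched, so a tag named for a histone gene may also fit elsewhere in the genome. The stem-loop was found by its consensus of 16 bases in the 3′ UTR. No stem-loop was found in 21 of the 67 genes, and some transcripts end soon after theirs. Shares of tags at or beyond the stem-loop are therefore limited by the annotation. Intervals are exact (Clopper-Pearson, 95%), from the share of Ia_low among both counts. Those of reads use reads divided by their mode per tag, 4 and 9. A count of 0 was set to 3 for a fold. The gene call rule was run on simulated independent counts with known changes. Real tags overlap and are not independent, so this check does not cover false calls that arise from that. No test between groups was made, with 1 library each.

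Named genes are the 4 of each type with the most gene-unique tags, each histone gene called, and mainly the 3 of each other list with the most tags. Named tags are the most read per type and library and the 3 most read that end in the stem-loop. Other tags and genes were named after their values were seen. Members, lists and rules were chosen with earlier results of these data known.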

Additional observations from a re-analysis of the deposited data

Results flagged for a closer look

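Longer tags lie outside the rule. Among tags of 31 to 44 nt, 26 of Ia_high (122 reads) and 49 of Ia_low (299 reads) fitted histone genes alone, more than the 3 that a count of 0 allows. Per 1000000 protein-coding tags of that length these were 3120 and 1284. They lay in the coding region in 12 and 24 cases and in the downstream element in 2 and 4, and none that began before the end of the stem-loop ran past the end of the mature mRNA.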

How the results depend on the processing

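The ratio of histone tags, 0.533, stayed below 1 in every alternative run. It was 0.336 by reads, 0.335 by reads per all reads of the library, 0.406 per all tags of 20 to 30 nt, and, as alternatives chosen after seeing the data, 0.361 by reads without annotated small RNA, 0.392 without tags after the stem-loop and 0.263 by reads without them. Of 60 alternative values for the 5 types, 59 stayed below 1, and H4 reversed to 1.01 with tags sharing their first 20 bases counted once. The downstream element share was chosen after seeing the data: in Ia_high it was 32.3% by reads, 18.5% in tags of 25 to 30 nt, 11.6% in tags of 20 to 24 nt and 9.06% with first 20 bases counted once, and in Ia_low 34.4% by reads and 19.4% with first 20 bases counted once. The count of histone genes called lower, 6, of 18 against 8.34% of all genes, was 12 of 24 (11.1% of all genes) with reads divided by the most common reads per tag. It was 4 of 12 (10.4%) with a floor of 20 tags, 6 of 31 (6.71%) with a floor of 5, 6 of 18 (11.1%) at 1.5-fold, 8 of 18 (18.3%) per all tags of 20 to 30 nt and 8 of 37 (7.76%) with shared tags divided among genes. The stem-loop end share kept within its interval in all alternatives. No paired analysis was possible because each group has 1 library, so no library could be left out. At this depth a gene with few tags in Ia_high could not be read in Ia_low.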

Other observations

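Tags that fit a histone transcript only after up to 3 bases are taken off the 3′ end are not members. There were 236 of them in Ia_high (1428 reads) and 54 in Ia_low (525 reads). The bases taken off were A only in 104 and 26 tags and T only in 56 and 14. In the downstream element lay 72 and 17 of these tags, with A only in 47 and 11 and T only in 6 and 1. In the stem-loop or the 5 bases after it, 5 and 1 ended.

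U7 RNA itself was fitted by 31 tags (255 reads) in Ia_high and 13 tags (183 reads) in Ia_low, each of which also fitted a protein-coding transcript. The earliest began at base 13 of U7 in Ia_high and base 12 in Ia_low, and 5 of 31 and 1 of 13 began within its first 20 bases.

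Tags of 18 and 19 nt on histone genes numbered 140 in Ia_high and 1 in Ia_low, unscaled. Tags of 20 nt were 9.14% of protein-coding tags in Ia_high and 2.83% in Ia_low. With 18 and 19 nt added to both counts the histone ratio was 0.516, against 0.533.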
